A study of Oryza sativa with 10 samples.

Results

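The arms of rice chromosome 3 were profiled for chromatin accessibility. The short arm was taken from 1 to 17.4 Mb and the long arm from 21.4 to 35.4 Mb on MSU7.0, the coordinates of the deposited peaks. Peaks of all 10 lists that overlapped by at least 1 bp were merged into sites, and a site belonged to an arm when its midpoint lay in that range. This gave 3952 sites of 33382 in the genome, 2218 on the short arm and 1734 on the long arm. No gain or loss of accessibility entered the choice of sites.

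Accessible sites were found by ATAC-seq: Tn5, a transposase, inserts adapters into DNA that closed chromatin does not shield. The seedlings were of YD6, an indica cultivar of Oryza sativa, germinated in darkness. The 5 groups had 2 lists each. Dark seedlings were never illuminated, and a further pair of groups was sampled after 8 h and after 24 h of light. The remaining groups were treated with ABA or with IAA. These were sprayed in DMSO on seedlings already in the light, shortly before 24 h, and both were therefore set against the 24 h group. A spray with DMSO alone was not analysed here, so hormone and spray cannot be told apart. Whole seedlings were used, and a change in the mix of cell types cannot be told apart from a change within cells.

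A plant chromosome is not uniform along its length. Arms carry most genes and most of the open promoters and enhancers, while the DNA around a centromere is rich in transposons and packed into heterochromatin marked by DNA methylation and H3K9 methylation. Light triggers photomorphogenesis, the switch of a dark-grown seedling to a green one. ABA is the hormone of drought and seed dormancy, and IAA is the main natural auxin, which drives cell elongation and patterning. The question asked of the arms was whether these treatments moved accessible sites evenly along the chromosome or more in some stretches than in others.

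The arms held 130 sites per Mb, 135 on the short and 124 on the long arm. The interval between them, which contains the centromere, held 66 per Mb in 264 sites. The other 11 chromosomes, taken whole here and below with their centromeres and ends, held 85.6 per Mb. The arms were thus not set against other arms alone. The label "euchromatic" could be checked only against the density of sites, because histone marks, DNA methylation and gene models of this build were not analysed here. For the same reason no gene is named and no sequence is shown at any site.

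Before any comparison of conditions, the lists were compared with each other. The labels and the methods of the study describe the 2 lists of a group as biological replicates. In the deposited lists, however, they appeared to share most of their tags. On the arms their tag numbers differed by a chi-square of 0.0122 to 0.0858 per shared site within the 5 groups, against 0.530 to 0.983 for the 40 pairs of lists from different groups. Summits fell on the same base at 37.3% to 82.3% of shared sites within groups and at 2.12% to 3.81% between groups. Independent counts would give a chi-square of about 1 per site, and lists of different groups also lay below 1, so the chi-square was read beside the summits. By both measures the lists of a group lay apart from every pair of lists from different groups. They differed by less than the sampling noise and were counted as 1 sample. That tags were shared is inferred from these measures, and the reads themselves were not examined. Every comparison below therefore sets 1 sample against 1 sample, with no replicate check and no p-value. Intervals are 95% Wilson intervals and cover counting error only.

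Depth could not be read from the lists in reads. The number of tags over each summit could, because the deposited fold and p-value of a peak fix it. On the lowest background, 11 tags made a peak in the dark lists. The 8 h and 24 h lists needed 13 or 14, the IAA lists 13 and the ABA lists 16. A site with no peak may thus still have held tags below this minimum. The dark lists gave 2740 and 2849 peaks on the arms. The 8 h lists gave 2605 and 2526, the 24 h lists 2376 and 2172, the ABA lists 1457 and 1390, and the IAA lists 2806 and 2846. The ABA lists were the shortest in the genome as well as on the arms, with 12659 and 13278 peaks in all against 18111 to 25302 in the other lists.

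The share of a list's peaks that lay on these arms was highest at 8 h. The 8 h lists had 12.7% each, the 24 h lists 12.03% and 11.99%, the IAA lists 12.2% and 11.97%, the dark lists 11.3% each and the ABA lists 10.97% and 10.98%. In lists cut to the length of the shortest, 8 h stayed highest with 12.3%, followed by 24 h with 11.5%, IAA with 11.4%, ABA with 10.9% and the dark with 10.5%, so that the order of ABA and the dark was reversed.

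Sites on the arms were short stretches of DNA. The median width was 241 bp, and the middle 50% lay between 163 and 368 bp. The short arm had a median of 245 bp and the long arm of 236 bp, against 230 bp on the other chromosomes. Sites of 800 bp or wider numbered 115 on the arms (2.91%), against 1.898% of sites on the other chromosomes. Together the sites covered 1176.8 kb.

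Neighbouring sites lay a median of 3903.5 bp apart, 3648 bp on the short arm and 4263 bp on the long arm. Between the arms the median gap was 6137 bp. Gaps shorter than 1 kb made up 22.0% of all gaps on the arms, near the 21.6% on the other chromosomes. Gaps longer than 10 kb made up 22.8%, against 28.4% on the other chromosomes. The longest stretch with no peak in any list was 104695 bp on the long arm, chr3:34025033-34129727, and 100226 bp on the short arm, chr3:13459364-13559589.

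Windows of 1 Mb showed how uneven the arms were. On the short arm, the window from 9 to 10 Mb held most sites, 223, followed by the window from 1 to 2 Mb near the tip, with 183. The fewest lay from 15 to 16 Mb, with 78, and from 14 to 15 Mb, with 79. On the long arm, the windows from 29.4 to 30.4 Mb and from 30.4 to 31.4 Mb held most, 193 and 176. The fewest lay from 23.4 to 24.4 Mb, with 80, and from 26.4 to 27.4 Mb, with 84. The dense stretches thus lay in the middle of each arm and, on the short arm, also at its tip, and the sparse ones mostly near the interval between the arms.

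**Figure D1:**
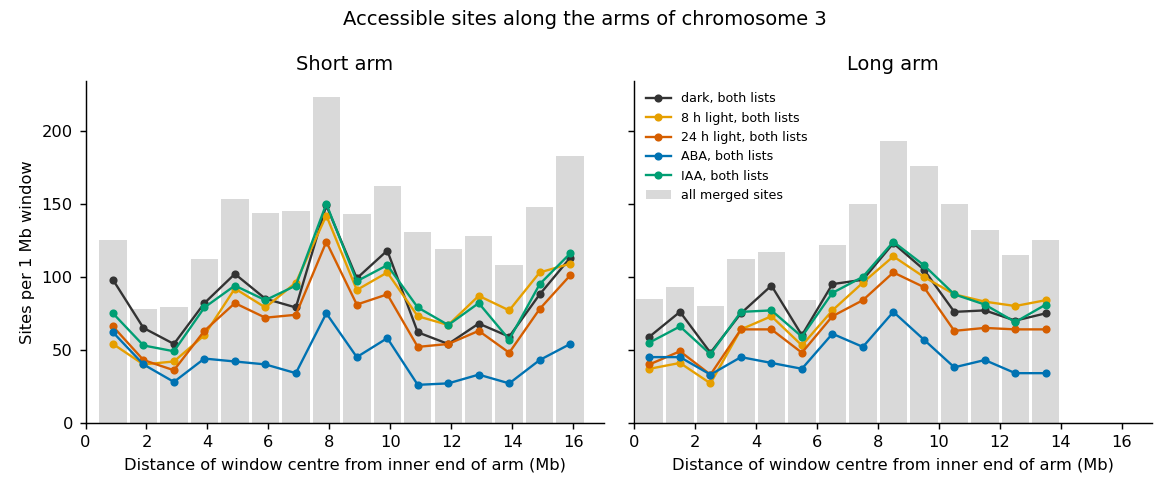
Sites per 1 Mb window (y axis) against the distance of the window centre from the inner end of each arm, the end that faces the interval between the arms (x axis, Mb). Grey bars give all merged sites and lines give sites called in both lists of a group; the bars run from 78 to 223, and the ABA line lies lowest in most windows, least so near the inner end.

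Over the 30 full windows, the number of sites correlated with the distance from the inner end with a Pearson r of 0.47 and a Spearman rho of 0.49. The windows share the same libraries and calling minimum, so these values describe and do not test. By distance, the density was 92.9 sites per Mb in the inner 4 Mb of both arms, 136 from 4 to 8 Mb, 158 from 8 to 12 Mb and 133 beyond 12 Mb. These distance ranges were chosen after the window values had been seen. The median width per window ranged little beside the density, with medians over the same 4 ranges of 222, 248, 249 and 237 bp.

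**Figure D2:**
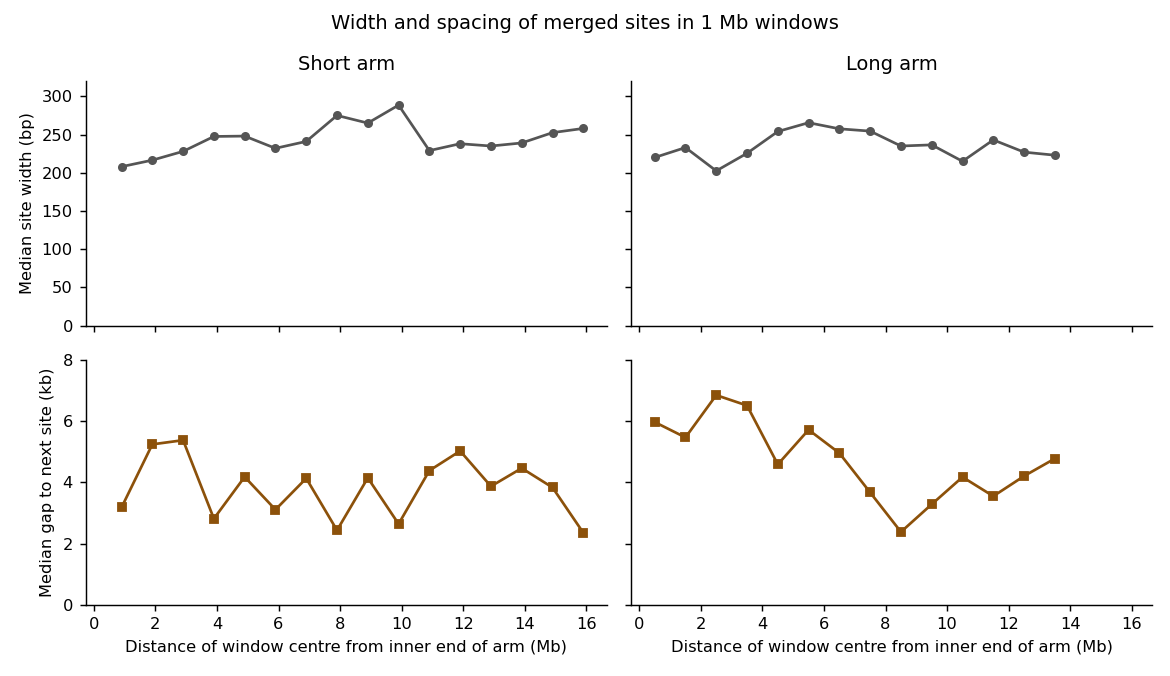
Median width of the merged sites (upper row, bp) and median gap to the next site (lower row, kb) in 1 Mb windows against the distance from the inner end of the short and the long arm. On the short arm the narrowest windows are nearest the inner end; on the long arm the median gap is longest, 6855 bp, in the window with 80 sites and shortest, 2382.5 bp, in the window with 193.

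A core of sites was open in every condition. All 10 lists had a peak at 1084 arm sites, or 27.4% (26.1% to 28.8%), against 28.5% on the other chromosomes and 44.3% between the arms. This share decreased from the inner end outwards, with 33.6% in the inner 4 Mb, 28.4%, 26.0% and 22.8% beyond 12 Mb. The inner stretches therefore had fewer sites per Mb, and more of those were called in every list. At the other extreme, 501 arm sites (12.7%) came from 1 list only. Both lists of at least 1 group agreed on 3381 sites (85.6%). The shares of 12.7% and 85.6% have no value over the genome beside them, so they do not set the arms apart.

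The strongest of the common sites, chosen for their rank in all 10 lists, had many tags in every list. Their tags are given unscaled. The list medians over sites called in all 10 lists were lowest with ABA, 29 and 28 tags, and highest with IAA, 34 tags in both lists. The site chr3:13647731-13648347 on the short arm had 134 and 139 tags in the dark, 138 and 141 at 8 h, 147 and 148 at 24 h, 148 in both ABA lists, and 137 and 136 with IAA. Its neighbour 256 bp away, chr3:13646860-13647474, had 109 and 108 tags in the dark, 99 and 100 at 8 h, 114 in both 24 h lists, 120 and 121 with ABA, and 97 and 100 with IAA. On the long arm, chr3:31821643-31821892 had between 122 and 144 tags in all 10 lists.

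The move from dark to 8 h of light came first. On the arms, 336 sites were gained, meaning that both 8 h lists and neither dark list had a peak, and 515 were lost, the converse. A further 1894 were kept in all 4 lists. Gains were 9.82% of the 3421 arm sites called in any of these lists, against 7.12% over the genome, and losses were 15.1%, against 19.4% over the genome. Losses made up 60.5% (57.2% to 63.7%) of the changed arm sites.

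The lists differed in depth and in the tags a call needed, so each list was also held to one common relative height. Tags were divided by the list's median over the sites called in all 10 lists. A peak had to reach 0.571 of that median, the lowest at which every list could make a call on its lowest background. On a higher background, where 53.9% to 61.7% of a list's arm peaks lay, a call could need more, and unequal minima remained. At chr3:25991919-25992257, 14 tags were needed in the dark lists and 21 in the ABA lists, where the common height was 16.6 and 16. At the common relative height 488 arm sites were gained and 324 lost at 8 h, and losses made up 39.9% (36.6% to 43.3%) of changed sites. At this height gains were 16.5% of the arm sites tested, against 11.9% over the genome, and losses 10.96%, against 15.2%. In lists of equal length the split was 409 gained and 203 lost. With tags scaled by relative library size in place of the shared-site median, a common height gave 329 gained and 519 lost. That size was read from the lowest background of each list, which also sets its calling minimum. The minimum on this scale was 11 and 11.3 tags in the dark lists and 14.4 and 15.1 at 8 h. This is close to the minima as deposited, so similar counts were largely given in advance. A minimum −log10 q of 5 gave 313 gained and 409 lost. The direction over the arms as a whole thus turned with the shared-site scale and with equal list lengths, and not with a higher minimum alone.

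The counts differed along the arms. In the inner 4 Mb of the arms, 17 sites were gained at 8 h and 185 lost. From 4 to 8 Mb the counts were 94 and 132, from 8 to 12 Mb 111 and 135, and beyond 12 Mb 114 and 63. Losses thus made up 91.6% (86.9% to 94.7%) of changed sites next to the inner end, 58.4% and 54.9% in the middle ranges, and 35.6% (28.9% to 42.9%) in the outer part. At the common relative height the same 4 shares were 81.8%, 36.2%, 33.5% and 17.6%. The gradient was present at both heights, and the inner range had more losses than gains at both.

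Both arms showed it. On the short arm the shares of losses were 95.1%, 50.4%, 57.1% and 34.6% from the inner end outwards. On the long arm they were 87.9%, 69.9%, 52.5% and 38.0%. Window by window, the share of losses correlated with the distance from the inner end with a Spearman rho of -0.81 and a Pearson r of -0.81 over 30 windows. Its correlation with the number of sites in the window was weaker, with a rho of -0.33. On the other chromosomes the rho with the number of sites was -0.64 over 342 windows, and no profile by distance is given for them. The interval between the arms, the next stretch inwards, had 7 gained and 55 lost sites.

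**Figure D3:**
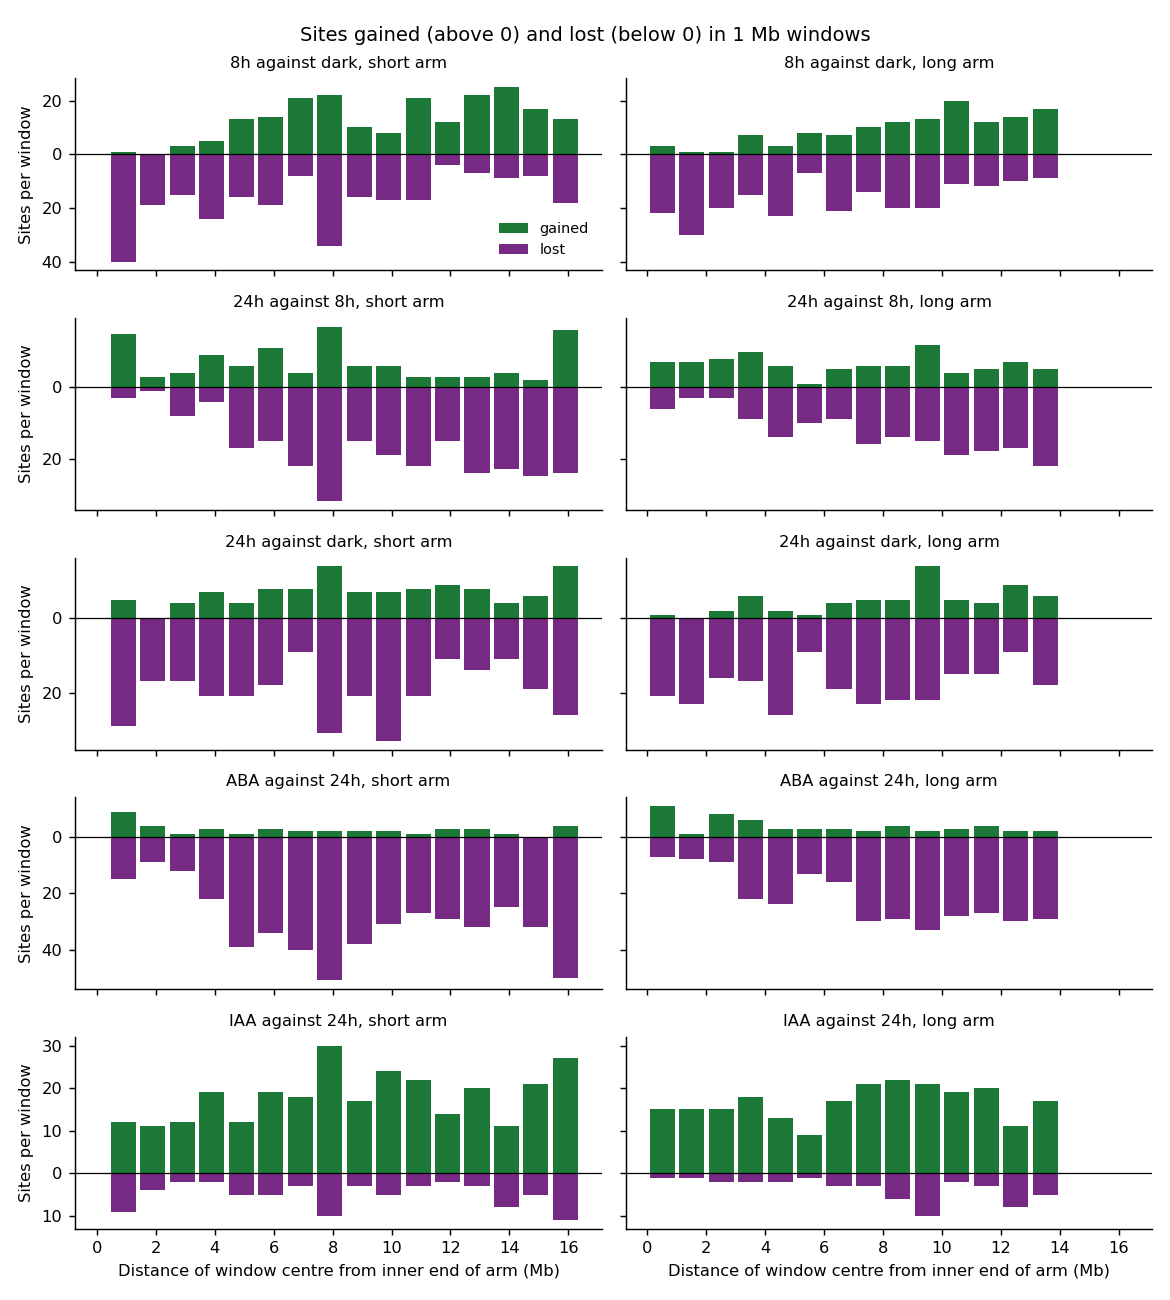
Gained sites (green, above 0) and lost sites (purple, below 0) per 1 Mb window against the distance from the inner end of the short (left) and the long arm (right), for the 5 comparisons in rows. At 8 h against the dark, gains are close to 0 in the inner windows and most frequent far out, up to 25 per window, while with ABA losses outnumber gains in 29 of 30 windows and with IAA gains outnumber losses in all 30.

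From 15 to 16 Mb on the short arm, 19 sites were lost at 8 h and none was gained. From 16 to 17 Mb, 40 were lost and 1 was gained, and from 22.4 to 23.4 Mb on the long arm, 30 were lost and 1 was gained. The opposite end of the scale was the window from 4 to 5 Mb on the short arm, with 22 gained and 7 lost. More sites were gained than lost in 10 of the 30 windows, all of them more than 5 Mb from the inner end. On the other chromosomes, taken whole, this was so in 33 of 342 windows (9.65%).

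A count of calls can turn on sites near the calling minimum, so the tags at sites called in every list were compared as well. These sites did not depend on a call in 1 condition. Each list was scaled to its own median over such sites in the genome. In the inner 4 Mb, 250 such sites had a median log2 ratio of 8 h to dark of -0.15. From 4 to 8 Mb the median was 0.12 over 310 sites, from 8 to 12 Mb 0.14 over 329 sites, and beyond 12 Mb 0.23 over 195 sites. Tags were higher at 8 h at 34.8% of the inner sites and at 74.9% of the outer ones. The median was below 0 in 8 of 30 windows, the farthest of them centred 4.5 Mb from the inner end.

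The size of this shift was small beside the change in calls. In unscaled tags, the inner sites had medians of 32.5 and 34 in the dark and of 29 and 30 at 8 h. The outer sites had medians of 26 and 27 in the dark and of 31 and 33 at 8 h. The dark lists thus had their higher signal near the inner end, and the 8 h lists did not. The share of peaks on a background above the lowest level also moved with the distance, from 50.9% in the inner range to 59.5% in the outer one. Its part in the gradient was not tested.

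**Figure D4:**
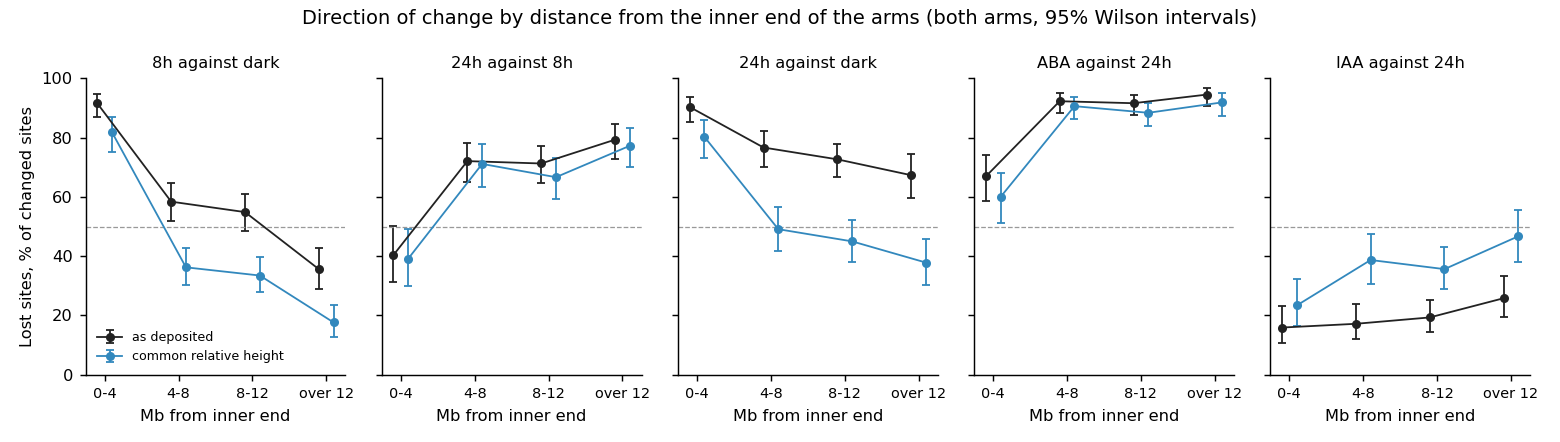
Lost sites as a percentage of gained plus lost sites (y axis) by distance from the inner end of the arms (x axis, Mb), both arms together, for the 5 comparisons. Black points use the peaks as deposited and blue points the common relative height; bars are 95% Wilson intervals and the dashed line marks 50%. From the inner to the outer range the 8 h comparison goes from 91.6% down to 35.6% and the ABA comparison from 66.9% up to 94.6%.

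Each list on its own showed where its peaks lay. The inner 4 Mb held 21.2% and 21.4% of the arm peaks of the dark lists, but 15.1% and 14.8% of those of the 8 h lists. The 24 h lists had 17.6% and 18.2% there, the IAA lists 18.5% and 18.8%, and the ABA lists 24.4% and 24.9%. The groups did not overlap between dark, 8 h and ABA, and the 2 lists of a group were close. Beyond 12 Mb the order was reversed, with 23.7% and 23.8% of arm peaks at 8 h, 19.5% and 19.9% in the dark, and 17.6% and 17.1% with ABA. The lists of 1 group appear to share tags, so their closeness is no measure of the spread between plants.

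**Figure D5:**
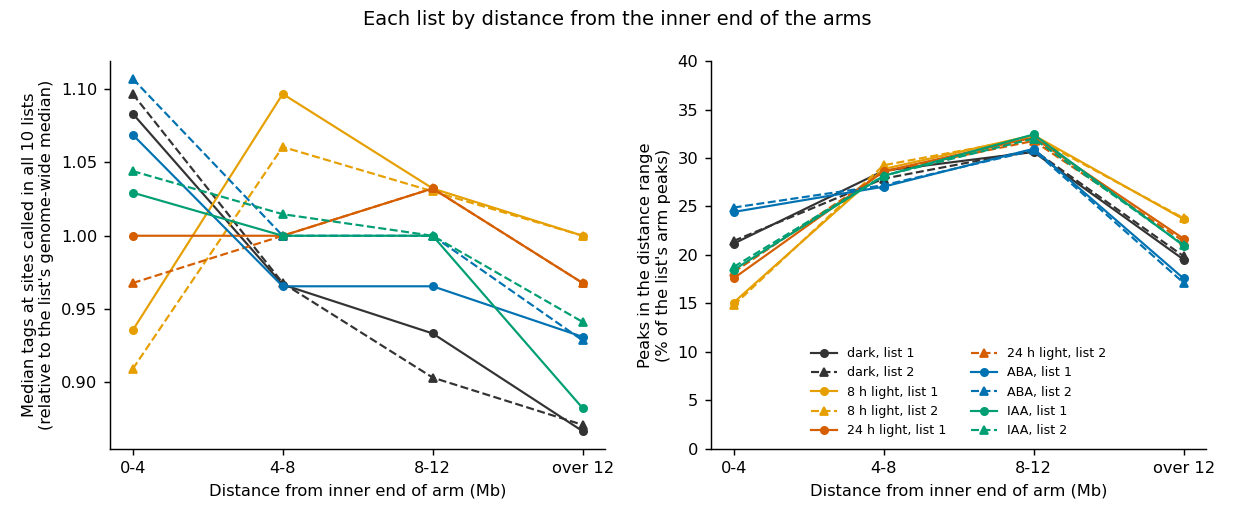
Each of the 10 lists by distance from the inner end of the arms (x axis, Mb). Left, median tags at sites called in all 10 lists, relative to the list's median over such sites in the genome; right, share of the list's arm peaks in each distance range (%). On the left, each dark, ABA and IAA list has its highest value in the inner range and its lowest in the outer one. The 8 h lists lie below all others in the inner range on both sides.

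The strongest sites that appeared at 8 h were wide and lay in clusters. The site chr3:10571144-10571961, 818 bp wide, had 42 and 50 tags at 8 h, 22 and 20 at 24 h, and 27 and 24 with IAA. It had no peak in the dark or with ABA, where a call needed 11 and 16 tags. It lay 108 bp from its next neighbour. The widest arm site, chr3:26956383-26959090, measured 2708 bp and was called only at 8 h, with 38 and 33 tags. It lay 577 bp before a further site, and 179 bp beyond that one lay chr3:26960248-26961943, 1696 bp wide, with 49 tags in both 8 h lists and no peak elsewhere. Called stretches of this width were thus present at 8 h and below the minimum in all other lists, where a call needed 11 to 19 tags.

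Other wide sites did not come and go. The site chr3:28515113-28517388, 2276 bp wide, had 51 and 54 tags in the dark, 56 in both 8 h lists, 58 in both 24 h lists, 54 and 53 with ABA, and 47 and 49 with IAA. The site chr3:7609867-7612161, 2295 bp wide, was merged from 26 peaks and also called in every list, with 45 and 38 tags at 8 h against 23 to 32 in the other lists.

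The strongest sites lost at 8 h were narrow and lay at least 4448 bp from any other site. The strongest, chr3:23547540-23547822, 283 bp wide, had 38 and 42 tags in the dark, no peak at 8 h, 21 and 22 tags at 24 h, 41 and 40 with ABA, and 31 and 33 with IAA. Next, chr3:14456921-14457078, 158 bp wide, had 34 and 35 tags in the dark, 24 in both 24 h lists, and 35 and 38 with IAA. It had no peak at 8 h, where 13 or 14 tags were needed, nor with ABA, and the preceding site was 23993 bp away. On the long arm, chr3:23738798-23738980 had 34 and 37 tags in the dark, 20 in both 24 h lists, 38 and 33 with IAA, and no peak at 8 h or with ABA. All 3 lay within 3 Mb of the inner end and were called again at 24 h, and the first of them was also called with ABA.

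Between 8 h and 24 h of light, the arms gained 202 sites and lost 450, with 1756 kept. Gains were 6.69% of the 3019 arm sites tested, against 8.2% over the genome, and losses 14.9%, against 12.7%. Losses made up 69.02% (65.4% to 72.4%) of changed sites. At the common relative height there were 195 gained and 379 lost sites, 6.999% and 13.6% of those tested, against 8.96% and 12.3% over the genome. The direction over the arms did not turn. Without the second 24 h list, the shorter of the pair, 332 sites were gained.

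The profile along the arms ran the other way than at 8 h. Losses made up 40.4% (31.3% to 50.3%) of changed sites in the inner 4 Mb, then 72.1% and 71.3%, and 79.3% (72.8% to 84.6%) beyond 12 Mb. The Spearman rho of this share with the distance was 0.70 over 30 windows. This comparison and that of 8 h with the dark share the 8 h lists, so opposite profiles are not independent. Only 4 to 49 sites changed in a window, and 11 windows had fewer than 20. In the tags of sites called in all lists the medians were 0.07, -0.04, 0.03 and -0.07 on the log2 scale from the inner end outwards.

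At its extremes, the window from 16 to 17 Mb gained 15 sites and lost 3, while the window from 2 to 3 Mb, near the tip of the short arm, gained 2 and lost 25. Among single sites, chr3:31935496-31935656 on the long arm had 32 and 30 tags at 24 h and 28 and 29 with IAA, and no peak in the dark, at 8 h or with ABA. The site chr3:29278489-29278652 had 18 and 20 tags in the dark, none called at 8 h, 30 and 28 at 24 h, and 19 in 1 IAA list. Of these sites the first was thus shared by 24 h and IAA, and the second by dark and 24 h.

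From the dark to 24 h of light, 177 arm sites were gained and 591 lost, with 1780 kept. Gains were 5.46% of the 3239 arm sites tested, against 4.8% over the genome, and losses 18.2%, against 21% over the genome. At the common relative height the counts were 306 gained and 338 lost, 11.1% and 12.3% of those tested, against 9.06% and 15.7% over the genome. Losses made up 77.0% (73.8% to 79.8%) of changed sites as deposited and 52.5% (48.6% to 56.3%) at the common height, and in lists of equal length 39.1%. With a common height on the library-size scale, which stays close to the minima as deposited, losses made up 77.7%. With a minimum −log10 q of 5 they made up 77.4%. The balance over the arms thus depended on how the lists were scaled to each other. Without the second 24 h list, 289 sites were gained.

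The order along the arms was again the same at both heights. As deposited, losses made up 90.4% of changed sites in the inner 4 Mb, 76.7%, 72.7% and 67.3% beyond 12 Mb. At the common height these shares were 80.3%, 49.1%, 45.0% and 37.8%. Tags at sites called in every list had a median log2 ratio of 24 h to dark of -0.05 in the inner range and of 0.10, 0.15 and 0.17 further out. The dark lists enter this comparison and that at 8 h. The strongest losses had 28 to 37 tags in the dark and lay within 2 Mb of the inner end: chr3:23220782-23220968, chr3:16571867-16572063 and chr3:21792586-21792781. The last of these was followed by a stretch of 88907 bp without a site and had 28 and 30 tags in the dark, 17 in 1 of the 8 h lists, 26 in both ABA lists, 23 and 21 with IAA, and no peak at 24 h.

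The strongest site gained from the dark to 24 h was of another kind. The site chr3:3470504-3470804, 301 bp wide, lay 13.9 Mb from the inner end, 42795 bp from the preceding site. It had no peak in the dark, 33 tags in both 8 h lists, 36 and 39 at 24 h, and 78 in both ABA lists. With IAA it had no peak, although a call there needed 13 tags. It was thus called in light and with ABA, and neither in the dark nor with IAA.

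Arm sites called in the dark, at 8 h and at 24 h in different combinations were spread differently. Sites called in both lists of the dark and in neither list of 8 h and 24 h numbered 353. They were 8.93% of arm sites, against 11.8% of sites over the genome. Of them, 37.1% lay in the inner 4 Mb, where 18.8% of all arm sites lay. Sites called at 8 h alone numbered 217 (5.49%, against 3.73% over the genome). Of these, 5.07% lay in the inner range and 35.0% beyond 12 Mb, where 21.6% of all arm sites lay. Sites shared by 8 h and 24 h but not the dark numbered 89 (2.25%, against 1.75% over the genome), with 4.49% in the inner range. The 112 sites called in the dark and at 24 h but not at 8 h (2.83%, against 3.51% over the genome) had 34.8% there. The sites called at all 3 times numbered 1605 (40.6%, against 40.2% over the genome). They lay close to the share of all arm sites, with 18.4% in the inner and 20.9% in the outer range.

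ABA was compared with 24 h of light. On the arms, 100 sites were gained and 792 lost, with 1192 kept. Gains were 3.99% of the 2506 arm sites tested, against 5.26% over the genome, and losses 31.6%, against 27.9%. Losses made up 88.8% (86.6% to 90.7%) of changed sites. At the common relative height there were 117 gained and 691 lost, 4.93% and 29.1% of those tested, against 6.52% and 25.7% over the genome. On a higher background the ABA lists could still need more tags than this height. In lists of equal length the counts were 235 gained and 304 lost, and losses made up 56.4%.

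The inner end stood apart here too. It had 45 gained and 91 lost sites, and losses made up 66.9% (58.6% to 74.3%) of its changes, against 92.3%, 91.6% and 94.6% (90.8% to 96.9%) in the ranges further out. At the common height the shares were 60.0%, 90.6%, 88.4% and 91.9%. The only window with more gains than losses ran from 21.4 to 22.4 Mb, at the inner end of the long arm, with 11 gained and 7 lost. On the other chromosomes 48 of 342 windows (14.0%) had more gains than losses. From 2 to 3 Mb on the short arm, 32 sites were lost and none was gained. Tags at common sites had a median log2 ratio of ABA to 24 h of 0.12 in the inner range and of -0.03, -0.09 and -0.04 further out.

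The strongest sites gained with ABA were called in no other group. The site chr3:5858687-5859616, 930 bp wide, had 68 and 67 tags with ABA, where a call needed 16, and no peak in the other 8 lists, where 11 to 14 were enough. On the long arm, chr3:23615413-23615591 had 45 tags in both ABA lists. Its neighbour 207 bp away, chr3:23615799-23616043, had 45 and 37. The strongest losses included chr3:25991919-25992257, with 30 and 33 tags in the dark, 36 and 40 at 8 h, 44 and 46 at 24 h, and 49 and 50 with IAA. A call with ABA needed 21 tags at that site. The site chr3:34464217-34464446 was likewise called in all lists but those of ABA, with 37 and 35 tags at 24 h and 21 to 30 in the others.

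With IAA, the counts went the other way. This comparison shares the 24 h lists with that of ABA. Against 24 h of light, 528 arm sites were gained and 129 lost, with 1827 kept. Gains were 16.4% of the 3229 arm sites tested, against 16.3% over the genome, and losses 4.00%, against 4.74%. Losses made up 19.6% (16.8% to 22.8%) of changed sites. Gains outnumbered losses in all 30 windows, and on the other chromosomes in 318 of 342 windows (93.0%). At the common relative height 335 were gained and 192 lost, 12.1% and 6.94% of those tested, against 12.8% and 7.7% over the genome. In lists of equal length there were 203 gains and 219 losses, and the excess of gains was gone. Without the second 24 h list, 229 sites were lost.

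The arms thus held shares of gains and losses near those of the genome with IAA. The profile along them was the flattest of the 5 comparisons as deposited, with losses at 15.9% of changed sites in the inner 4 Mb, then 17.2%, 19.3% and 25.8%. At the common height the shares were 23.4%, 38.7%, 35.6% and 46.7%. The Spearman rho with the distance was 0.32 over 30 windows, -0.10 on the short arm and 0.70 on the long arm. Tags at common sites had median log2 ratios of IAA to 24 h of 0.0019, -0.04, -0.09 and -0.08 from the inner end outwards.

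Sites gained with IAA were mostly called in other groups too. The strongest, chr3:17077342-17077573, had 24 and 26 tags in the dark, 23 and 25 at 8 h, 38 and 41 with IAA, and no peak at 24 h or with ABA. The site chr3:22292607-22292761 had 24 and 25 tags in the dark, 35 and 34 with IAA, and no peak elsewhere. Both lay within 1 Mb of the inner end. Next came chr3:12715294-12715496, had 21 and 22 tags in the dark, 31 and 29 at 8 h, and 35 and 41 with IAA. The strongest loss was chr3:3470504-3470804, described above. The next, chr3:34497891-34498012, had 28 and 31 tags at 24 h, 23 to 29 in the dark and at 8 h, 28 in 1 ABA list, and no peak with IAA.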

How the data were processed

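ATAC-seq peak lists of rice seedlings, 2 in each of 5 groups, were used as deposited. The authors trimmed the reads, aligned them with Bowtie2 (2.3.2) to MSU7.0, filtered them with SAMtools (1.9) and called peaks with MACS2 for each library. Their control for the calls is not given in the sources used here. For each peak the deposited lists hold a fold (a ratio to background), a −log10 p-value, a −log10 q-value, a score that rescales the latter, and the summit offset. The score was not used. The fold and −log10 p of each of the 200537 deposited peaks were solved for the tags over the summit and the background, with −log10 p matched to within 0.000203. The solver, merging and calls were tested on simulated data. Absolute depth is unknown.

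Sites were sorted into 1 Mb windows, counted from 1 Mb on the short arm and from 21.4 Mb on the long arm, giving 30 full windows. The last 0.4 Mb of the short arm was not ranked. Planned exact permutation tests over lists were left out once the lists of a group appeared to share most tags. The sites named are, for each comparison, the 3 strongest gained and lost by their rank of q within the lists, the 3 strongest in all lists and the 3 widest; some are left out of the text. Tags needed for a call are those at the background of the site. The arms, lists, distance ranges and rules were chosen with earlier results of these data known. Alternatives were equal list lengths, a minimum −log10 q of 5, a common relative height on either of 2 scales, presence in either list, the top 50% of each list, peaks merged within 100 bp, sites of the 4 lists of a comparison, any overlap with an arm, other windows, and each list left out. Analyses used Python 3.11.15, numpy 2.4.6, pandas 2.3.3, scipy 1.17.1 and matplotlib 3.10.9.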

Additional observations from a re-analysis of the deposited data

How the results depend on the processing

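Each group is 1 sample, so that no difference has a replicate check. Both depth and background limit every call: a lost site may hold tags below the minimum of its list. With ABA the relative library size was the largest and the median fold the lowest, and their part in the ABA losses was not tested. No paired analysis was possible because the results come from no test. Deviations of same-numbered lists from their group means had r from -0.096 to 0.0050 at 965 arm sites, over 10 pairs of groups. The lists of a group differed by less than the sampling noise, so these values cannot show whether the lists were paired. The inner and outer ranges and the library-size scale were chosen after the window values had been seen. No result moved under the library-size scale, merging within 100 bp, sites of the 4 lists or any overlap with an arm. Counts within 1.5 times and other values within counting error are taken as unmoved. The library-size scale keeps minima close to those as deposited, so little movement was possible there. Of the results recomputed, 4 moved at a minimum −log10 q of 5, 18 with lists of equal length, 12 with the top 50% of each list, 6 at the common relative height and 4 with presence in either list.

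In lists of equal length, the arms had 2455 sites, 81.6 per Mb on the short and 79.8 on the long arm, with a median gap of 6833 bp, and held 10.5% of dark peaks, 12.3% at 8 h, 11.5% at 24 h and 11.4% with IAA. From dark to 8 h, 203 sites were lost (76.2% of changes in the inner 4 Mb, 16.4% beyond 12 Mb), and from 8 h to 24 h 286. From dark to 24 h, 286 were gained and 184 lost. ABA gained 235 and lost 304, and IAA 203 and 219. At a minimum −log10 q of 5, 20.6% of sites were called in all lists, 10.2% of ABA and 11.7% of IAA peaks lay on the arms, and ABA gained 61 sites. At the common relative height, lost sites at 8 h numbered 324 (81.8% of changes in the inner range, 17.6% in the outer), those gained and lost from dark to 24 h 306 and 338, and sites gained with IAA 335. With presence in either list, 360 sites were gained from 8 h to 24 h, 304 from dark to 24 h and 849 with IAA, which lost 254.

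The top 50% of each list gained and lost 49 and 78 sites at 8 h (95.3% lost in the inner range, 25% in the outer), 17 and 50 from 8 h to 24 h, and 18 and 71 from dark to 24 h. ABA gained 21 and lost 137, and IAA 49 and 9. The rho of the lost share with the number of sites from 8 h to 24 h was 0.058 in windows shifted by 0.5 Mb, and for ABA 0.29 in windows of 0.5 Mb and 0.75 in windows of 2 Mb. The rho with distance for ABA was 0.40 in windows of 0.5 Mb. With each list left out in turn, sites gained at 24 h numbered 202 to 332 against 8 h and 177 to 289 against dark, and sites lost with IAA 129 to 229, each highest without the second 24 h list. The share of losses at 8 h stayed between 88.7% and 92.1% in the inner range and between 34.1% and 42.0% in the outer one. The 24 h, ABA and IAA lists do not enter that comparison, and the 2 lists of a group appear to share most tags. These ranges thus measure no spread between plants. The cause of the differences between settings was not tested.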

Other observations

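Sites that changed were mostly weak ones. Peaks were ranked within their list by −log10 q, and the rank was averaged over the lists that held the site. Gained and lost arm sites had a median percentile of 18.3 to 29.7 over the 5 comparisons, and kept sites one of 54.8 to 67.5. Of the 792 arm sites lost with ABA, 24 lay in the top 25% of their lists, and of the 515 lost at 8 h, 9 did. Kept sites were also wider, with a median of 350.5 bp at 8 h against dark, where gained sites had 192 bp and lost sites 184 bp. Strength ranked on the lists themselves is not independent of the calls. No values over the genome stand beside these, so they do not set the arms apart.

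The next site along the arm after a changed site was compared with the shares over all arm sites tested. Of the 336 arm sites gained at 8 h, the next tested site was also gained in 17.9%, where gained sites were 9.82% of those tested, and it was lost in 11.6%, where lost sites were 15.1%. Of the 515 lost sites, the next was also lost in 20.0% and gained in 7.38%. With ABA, the next site was also lost after 36.5% of lost sites, where 31.6% were lost in all, and also gained after 15.0% of gained sites, where 3.99% were gained in all. After sites gained with ABA, the next site was lost in 19 of 100 cases, below the 31.6% lost in all. With IAA it was gained after 14.4% of gained sites, where 16.4% were gained in all, so that gains did not adjoin each other above their overall share. Neighbouring sites share their place along the arm, so these shares include the gradient.

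Sites called in the dark or at 8 h alone were looked up in the hormone lists. Of the 353 arm sites called in the dark and in neither list at 8 h and 24 h, 113 (32.01%) were called in both IAA lists and 31 (8.78%) in both ABA lists, against 25.3% and 9.32% of such sites over the genome. Of the 217 called at 8 h alone, 63 (29.03%) were called in both IAA lists and 3 (1.38%) in both ABA lists, against 27.1% and 2.81% over the genome. The arm shares thus lay near those of the genome. IAA lists were about as long as the dark lists and ABA lists shorter, and the part of list length in these counts was not tested.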
